A study of Rattus norvegicus with 66 samples.

Results

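The cytosolic ribosomal protein genes are those whose symbol is Rpl or Rps followed by a number, by p0 to p2 or by a, and whose mean level over all libraries was at least 10 CPM (counts scaled to a library total of 1000000 counts). Of 76 gene entries with such a symbol among 37777 genes in the files, 67 met the minimum and are the members described here, 41 of the large and 26 of the small subunit. They were selected on their mean level and as a module of interest in these data, so their level is a description and not a finding. RNA was taken on postnatal day 6 from the dorsal hippocampus of 64 Long Evans rat pups (41 male, 23 female) and sequenced as poly-A libraries (66 libraries, 10644138 to 86206550 counts, median 20740650). Aroclor 1254, a mixture of polychlorinated biphenyls, and bisphenol A reached the pups through dams fed soy-free chow that held the agent from before mating through lactation, at 0.5 mg/kg (Aro0.5, n = 4 males, BPA0.5, n = 4 males) or 5 mg/kg (Aro5, n = 6 males and 5 females, BPA5, n = 7 males and 4 females). Chlorpyrifos, an organophosphate insecticide, was injected under the skin of the dam at 1 mg/kg (CPF1, n = 4 males) or 3 mg/kg (CPF3, n = 7 males and 4 females). Feeding controls (CONF, n = 4 males and 5 females) received chow without agent, and injection controls (CONSC, n = 5 males and 5 females) received vehicle by injection, given as saline in the labels and as DMSO in the methods of the study. The dam was the exposed animal, and the piece of tissue also held some laterally adjacent cortex. In bulk tissue, fewer cells of a type and less RNA per cell cannot be told apart. Same-sex littermates occur in 2 groups (Aro5 males 120-1y and 120-2y, Aro5 females 115-13x and 115-7x).

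The names of the libraries are written in 2 forms, and what the forms stand for is not stated. In males, form A ends in a capital Y and form B in a lower-case y. In female controls, form A has a low line between group and pup (CONF_, CONSC_), and form B has none (CONFN, CONSC-8, CONSC6). Form A holds 9 of the 10 libraries of male controls and all 12 of low-dose males. Form B holds all 20 of high-dose males. In high-dose males, treatment and form therefore cannot be told apart. In female controls 5 libraries carry form A and 6 carry form B. The names of the 13 libraries of high-dose females carry neither distinction and were given no form. A male control (N2-2y) and a female control (N4-3x) have 1 library of each form, which were summed per pup in the comparisons between pups. The 12 genes listed as markers of hippocampal neurons had a summed level of 3291 to 5098 CPM in the pups. Most of it came from Map2 (median 1351 CPM) and Tubb3 (median 2131 CPM), which are not limited to the hippocampus. The lowest values of the other listed genes ran from 0.835 CPM (Zbtb20) to 56.8 CPM (Bcl11b), with 3.38 CPM for Neurod2 and 12.1 CPM for Neurod6. Zbtb20 reached no more than 8.07 CPM. The choroid plexus marker Ttr ranged from 722 to 4369 CPM. The summed level of 5 choroid plexus markers had a median of 2641 CPM in male controls, 2483 in female controls, 2349 in high-dose males and 2108 in high-dose females, and the part of such tissue in the results below was not tested.

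Ribosomal proteins assemble with ribosomal RNA into the small subunit, which reads the messenger RNA, and the large subunit, which joins amino acids. A cell needs them in matched amounts, and their messenger RNAs are among the most abundant in growing tissue. Most of these messages in mammals start with a C followed by a run of pyrimidines, the terminal oligopyrimidine (TOP) motif, through which the mTOR pathway adjusts their translation. Many ribosomal protein genes have processed pseudogenes of near-identical sequence, so the counts of single members depend on how reads with several matches were treated, which is not stated.

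The windows below show where the annotated transcript starts lie in members named in the later comparisons, and in Rpl10, which is not named there. They are taken from RefSeq for the build GRCr8, which is not the build used for counting. Each has 30 bases of the sense strand, 15 before the start and 15 from it, and the capitals mark a TOP motif, sought on the sense strand as a C at the first transcribed base followed by at least 4 bases that are C or T. The first 4 hold the motif at the annotated start and the last 4 do not.

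Rplp1 (chr8:71290858-71290887, minus strand): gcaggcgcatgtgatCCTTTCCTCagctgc
Rps15 (chr7:10068101-10068130, minus strand): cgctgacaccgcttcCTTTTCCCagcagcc
Rpl34 (chr2:221962269-221962298, minus strand): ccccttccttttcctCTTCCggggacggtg
Rpl10 (chrX:157205835-157205864, plus strand): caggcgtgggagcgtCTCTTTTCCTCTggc
Rpl36 (chr9:1533765-1533794, plus strand): ctgtccggccgccatcggaaagctgcaggt
Rpl13 (chr19:68062499-68062528, plus strand): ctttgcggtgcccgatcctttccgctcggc
Rpl26 (chr10:54109677-54109706, plus strand): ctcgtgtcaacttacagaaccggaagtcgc
Rps3 (chr1:163195762-163195791, minus strand): ttcctttcagcggcgcgcggcagcaagatg

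Of the 67 members, 52 had a promoter window in RefSeq. The motif stood at the annotated start in 20 of these 52 (38.5%), against 722 of 27457 windows of all genes (2.63%). A start within 10 bases of the annotated one had the motif in 39 members (75.0%) and in 28.8% of all windows. The 6 letters CTTTCC, which can overlap the TOP motif, lay within 20 bases of the start on either strand in 17 members (32.7%) and in 3.51% of all windows. A match is a description of the letters in these windows. Members with and without the motif at the start had similar median log2 fold changes in the comparisons described later, -0.24 (n = 20) and -0.16 (n = 32) between the name forms in female controls, and 0.12 and 0.083 between the sexes.

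The members together took between 1.39% (Aro5 male 120-1y) and 2.31% (CONSC female 9-1x) of the counts of a pup. By mean CPM, the highest were Rpsa (862 CPM), the laminin receptor protein of the small subunit, Rplp0 (841 CPM), the base of the stalk that recruits translation factors, and Rpl4 (659 CPM). Without transcript lengths these are levels per library and not per length, so they do not rank the amount of transcript. The members just inside the minimum were Rpl22 (33.9 CPM), Rpl30 (49.0 CPM) and Rpl36 (61.3 CPM). Just outside lay Rps27a (5.69 CPM), which encodes a fusion with ubiquitin, Rpl39 (5.28 CPM) and Rps4x (4.45 CPM). A further 6 entries were close to 0. Rps19 had a mean of 0.178 CPM, Rps6 0.0187 CPM and Rps9 0.0158 CPM, while Rpl8, Rpl35a and Rplp2 were listed at 0 in all 66 libraries. Ribosomes of every cell use these proteins, so nothing is read from the zeros about expression.

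The members varied slightly more between pups than all genes above the same minimum, a set that was not matched on level. The SD of log2(CPM + 0.5) over 64 pups had a median of 0.23 (range 0.14 to 0.92) over the members, against 0.20 over 10234 genes with a mean of at least 10 CPM. It was below 0.25 in 43 of 67 members and in 7384 of the 10234 genes. The steadiest were Rpl21 (SD 0.14, 373 to 612 CPM), Rpl5 (SD 0.14, 288 to 462 CPM), which carries 5S ribosomal RNA into the large subunit, and Rpl4 (SD 0.15, 515 to 784 CPM). The most variable were Rpl36 (SD 0.92, 10.5 to 147 CPM), Rpl30 (SD 0.56, 19.7 to 79.5 CPM) and Rps15 (SD 0.44, 74.1 to 298 CPM). Rpl36 thus spanned 13.9-fold over the pups, where Rpl21 spanned 1.64-fold. Rpl22, the lowest member, had an SD of 0.25.

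Several members that serve as reference genes in quantitative PCR varied more than other such genes. The SD of log2(CPM + 0.5) was 0.17 for Rpl19, 0.20 for Rpl13a, 0.25 for Rpl32, 0.25 for Rps18 and 0.26 for Rplp0. It was 0.11 for Ppia, 0.13 for Ywhaz, 0.14 for Gapdh, 0.15 for Actb, 0.18 for Tbp and 0.20 for B2m. Hprt1 was at 0 in nearly all pups, with a maximum of 0.0512 CPM, so its spread carries no meaning. Rplp0 had the widest range of the 5 ribosomal genes, from 490 CPM in Aro5 male 120-1y to 1190 CPM in CPF3 male 36-3y.

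The mean of log2(CPM + 0.5) over the 67 members, 1 value per pup, placed the groups within a narrow band. Group means lay between 7.62 ± 0.14 (SD, n = 4, BPA5 females) and 7.91 ± 0.13 (SD, n = 4, CPF1 males). Single pups lay between 7.37 and 8.20. In Aro5 males the 6 values were 7.37, 7.42, 7.65, 7.73, 7.78 and 7.98, and the lowest 2 are the littermates 120-1y and 120-2y. In the 9 male controls the lowest value was 7.67, the median 7.80 and the highest 8.00, and in the 10 female controls 7.57, 7.80 and 8.20. The highest female control was CONSC 9-1x. Every treated group overlapped its controls, as did all pairs of groups compared below. The groups next to each other in this order differed by less than the SD within a group.

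**Figure D1:**
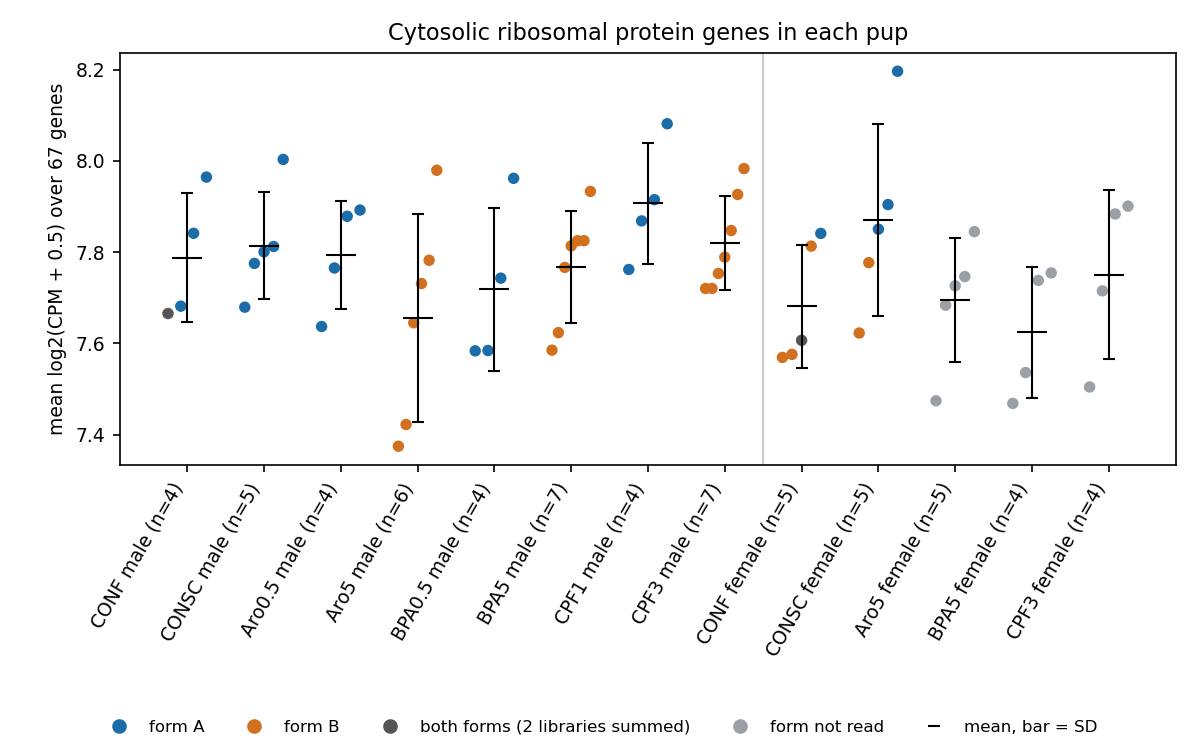
Mean log2(CPM + 0.5) over the 67 members (vertical axis) for every pup, by group, males left of the grey line. Each point is a pup, coloured by the form of its library name, and the black bar is the group mean with its SD. Group means stay between 7.62 and 7.91, and Aro5 males 120-1y (7.37) and 120-2y (7.42) are the lowest pups.

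The members rose and fell together from pup to pup in part. The mean of the pairwise Pearson correlations was 0.47 over all pups (2211 pairs, 327 of them below 0), 0.53 among 41 males and 0.74 among 23 females. These are descriptions, since the pairs share libraries and their totals. Rpl19 followed the mean of the other members most closely (r = 0.95 over 64 pups), and Rpl36 least (r = 0.20), then Rpl32 (r = 0.33) and Rpl30 (r = 0.36). Within a sex, Rpl36 followed the others better, with r = 0.56 in males and 0.83 in females. Rpl36 rose with Rps15 in males (r = 0.97) and in females (r = 0.86), and with Rpl13 (r = 0.93 and 0.83). Its relation with Rpl30 had opposite signs, with r = -0.55 in males and 0.61 in females. Rplp1 and Rpl30 had r = -0.37 in males and 0.96 in females.

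**Figure D2:**
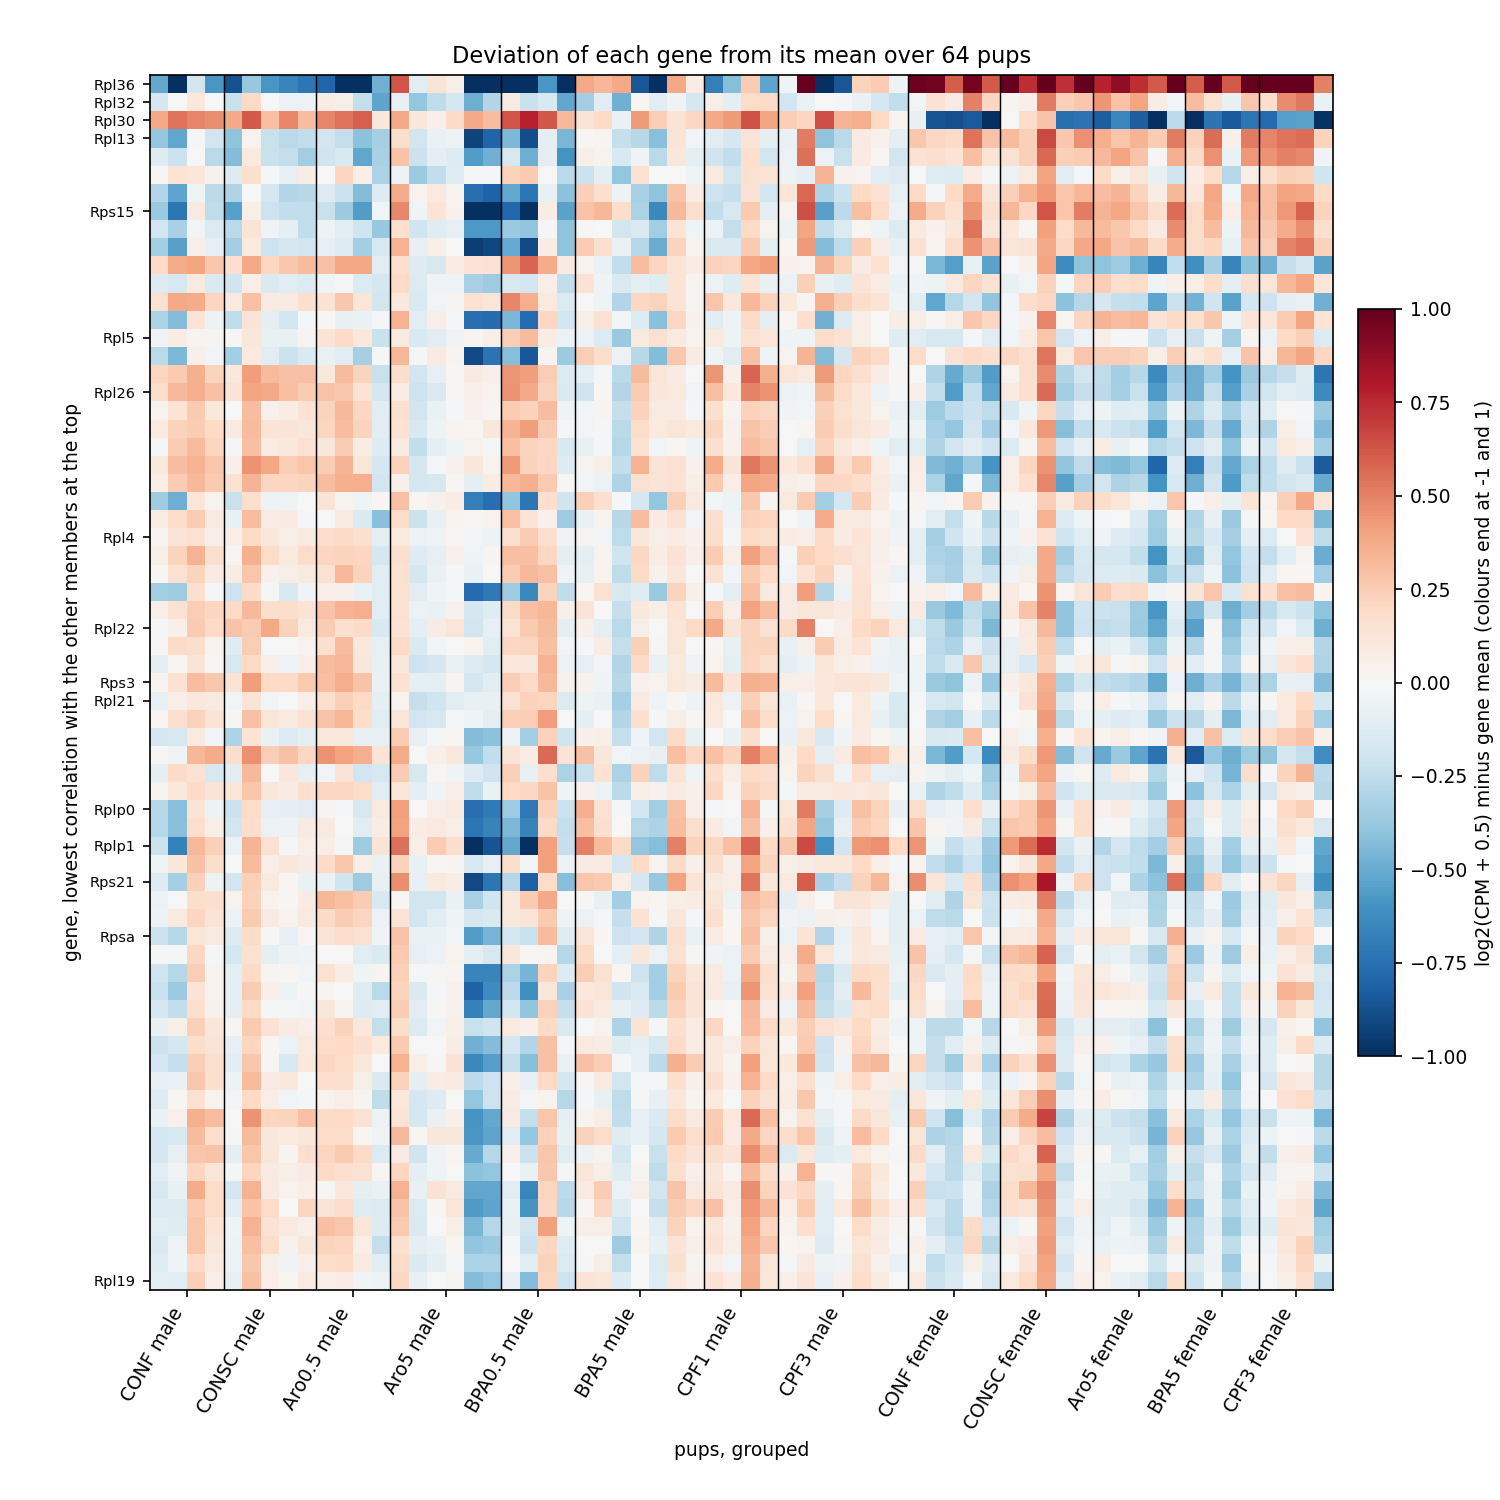
Deviation of each member (rows) from its own mean over 64 pups, in log2(CPM + 0.5), for every pup (columns, grouped), with red above and blue below the mean and colours ending at -1 and 1. Only some rows are labelled. Members are ordered by their correlation with the mean of the others, with Rpl36, Rpl32 and Rpl30 at the top. Rpl36 is above its mean in females and Rpl30 mostly below.

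The 2 pups with 2 libraries show how far the values of single members moved between libraries of the same pup. Whether the tissue piece or the RNA extraction also differed is not stated. In male control N2-2y the form B library exceeded the form A library by a median of 0.26 (log2 CPM) over the members, 48 higher and 19 lower, where the median over 10234 genes was -0.026. Rpl36 was at 12.7 CPM (210 counts) in the form A library and at 57.1 CPM (1013 counts) in the form B library, a 4.35-fold difference in the same pup. Rps15, a protein of the small subunit, went from 88.0 to 201 CPM and Rplp1, a stalk protein, from 68.1 to 149 CPM. Rpl30 went the other way, from 70.1 to 50.9 CPM. In all, 18 of 67 members (26.9%) differed by over 0.5 on the log2 scale between the libraries of this pup, against 16.3% of the 10234 genes.

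In female control N4-3x its libraries differed less and mostly in the other direction. The form B library was lower by a median of 0.15 over the members (56 lower, 11 higher, against a median of -0.028 over all 10234 genes). Rps21 went from 148 CPM in form A to 90.8 CPM in form B, Rplp1 from 144 to 89.3 CPM and Rps25 from 112 to 75.6 CPM. These were the only 3 members that differed by over 0.5 (4.48%, against 0.254% of the 10234 genes). Rplp1 and Rps21 were thus lower in form B in the female and higher in form B in the male. The labels give different times of day for the 2 libraries of N4-3x.

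**Figure D3:**
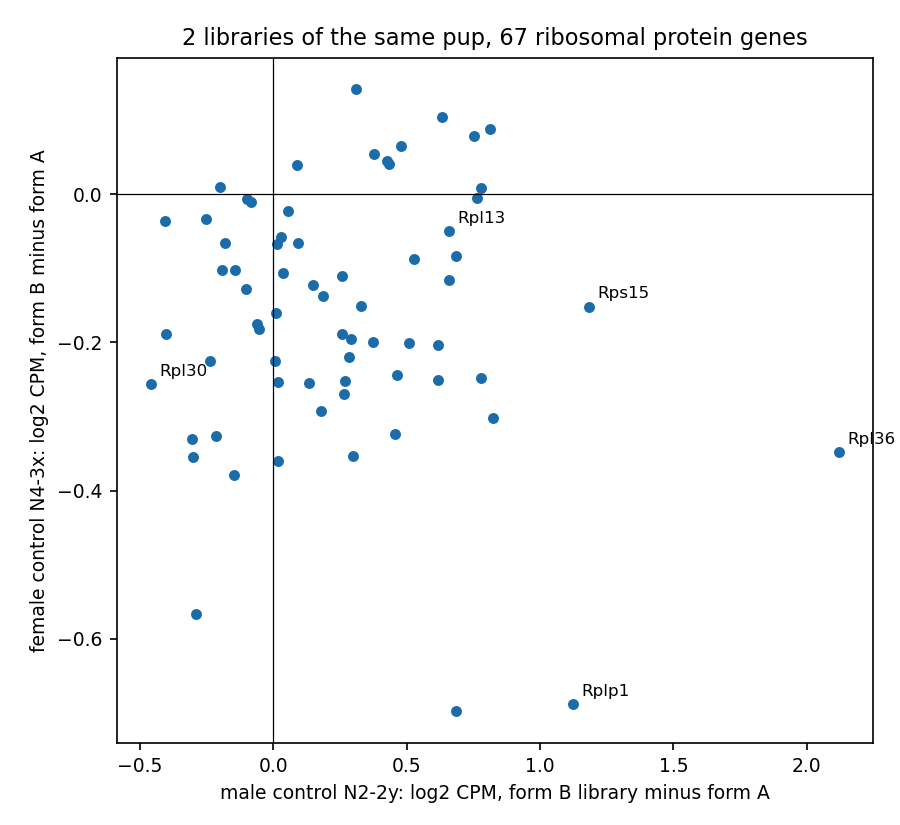
Difference in log2 CPM between the form B and the form A library of the same pup, for male control N2-2y (horizontal) and female control N4-3x (vertical). Each point is a member. Rpl36 lies at 2.12 on the horizontal axis, and Rplp1 is positive in the male and negative in the female.

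The only group of labels with several libraries of both forms is that of the female controls, and there the members were lower in form B. In form B against form A (6 and 5 libraries, of which N4-3x gave 1 to each), edgeR's quasi-likelihood test called 8 of 67 members (11.9%) at an adjusted p under 0.05, all 8 lower. The background was 1.43% of 16577 genes. The median log2 fold change was -0.21 over the members and -0.013 over all genes, and 57 of the 67 fold changes were negative. Without the adjustment, 36 members were lower and 1 was higher at p under 0.05 (55.2%, against 18.7% of all genes). The largest falls called were in Rpl30, Rplp1, Rpl34, Rpl36a and Rps21.

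Rplp1 was at 89.3, 99.5, 109, 113, 115 and 122 CPM in the form B libraries and at 144, 173, 174, 189 and 215 CPM in those of form A. The forms did not overlap. It fell by 0.70 on the log2 scale (SE 0.10, adjusted p = 0.0052 by edgeR). Rpl30, which also helps to recode selenocysteine messages, was at 22.3, 22.3, 24.8, 25.5, 27.1 and 27.4 CPM in form B and at 26.8, 43.7, 46.1, 52.4 and 56.3 CPM in form A. The only form A library within the range of form B was that of N4-3x (26.8 CPM). Rpl30 fell by 0.83 (SE 0.15, adjusted p = 0.020 by edgeR). Rpl34 fell by 0.54 (SE 0.11), Rpl36a by 0.54 (SE 0.12) and Rps21 by 0.54 (SE 0.11). Rps13 (fall of 0.44), Rpl26 (0.53) and Rps25 (0.52) were the other members called. The form A library of CONSC 9-1x comes from the pup with the highest mean over the members. Without a single form A or form B library, the count of members called lay between 1 (without N2-4x, 11-3x, N1-8x or N8-1x) and 25 (without the form A library of N4-3x, where 6.35% of all genes were called). It was 2 without 13-8x, the form B library of N4-3x or 8-2x, and 5 without 9-1x. The share of all genes called in the refits with 1, 2 or 5 members is not reported here. The loss of calls is therefore not read as particular to the members. Without both libraries of N4-3x, an alternative added after the data were seen, 18 members were called, all lower, and 3.60% of all genes. The summed level of the blood markers was 252 to 379 CPM in form A and 137 to 214 CPM in form B libraries, without overlap, and that of the neuronal markers 3291 to 4520 and 4412 to 5098 CPM. Their part in the result was not tested.

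Among controls of form A, members were both higher and lower in females. In 5 female against 9 male libraries, edgeR called 11 of 67 members (16.4%), 10 higher and 1 lower in females, where the background was 11.7% of 15849 genes. Of all 1847 genes called, 1522 were higher and 325 lower in females, so most calls were rises there too. Without the adjustment, 35.8% of the members and 25.1% of all genes had p under 0.05. The median log2 fold change was 0.064 over the members and -0.014 over all genes. Rpl36 was the largest rise. It was at 85.8, 102, 106, 109 and 136 CPM in the female libraries and at a lowest of 12.7, a median of 32.2 and a highest of 45.0 CPM in the male ones. The sexes did not overlap. Rpl36 was 1.84 higher on the log2 scale in females (SE 0.20, adjusted p = 1.47e-05 by edgeR). Rps15 (0.70, SE 0.15), Rpl13 (0.64, SE 0.11), Rps21 (0.57, SE 0.12) and Rpl15 (0.54, SE 0.11) followed. Other rises included Rpl27a, Rpl29, Rps13 and Rps10. Rpl30 was the member called lower, at 26.8 to 56.3 CPM in females and 56.9 to 70.6 CPM in males, with a fall of 0.49 (SE 0.13, adjusted p = 0.018 by edgeR). Without CONSC female 9-1x, 20 members were called, 7 higher and 13 lower, with 11.9% of all genes.

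Of the 5 females of this comparison, 4 share a litter with a male in it. With the litter as a replicate block, an alternative added after the data were seen, edgeR called 1 member, Rpl36, which was 1.75 higher in females (adjusted p = 0.0099 by edgeR), among 2.42% of all genes called. The other 10 kept their direction without passing, with adjusted p of 0.10 or more by edgeR, and the median over the members was -0.032. This fit has 3 residual degrees of freedom. Some markers of other cell types also differed between these libraries. The calls named here are from the fit without the litter, where 11.7% of all 15849 genes were called. The summed level of 3 endothelial markers was 58.7 to 79.0 CPM in males and 86.0 to 107 CPM in females, without overlap, and Cldn5 (0.62) was called among them. Of 6 oligodendrocyte markers Olig1 (0.51) and Mog (-0.63) were called, with sums of 470.0 to 653 and 476 to 620.5 CPM. Of 12 neuronal markers Wfs1 (0.92) was called, with sums of 3624 to 4147 and 3291 to 4520 CPM. No astrocyte, microglia, choroid plexus or blood marker was called by edgeR, where 1 astrocyte marker and 0 of the others had p under 0.05 without adjustment. The part of these cells in the result was not tested.

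The separation of the sexes in Rpl36 was not complete over all groups. Its 23 female values ran from 72.8 to 136 CPM (median 99.8), and its 41 male values from 10.5 to 147 CPM (median 35.3). Of the males, 2 were at or above the lowest female. The highest value of the series was in a male (CPF3 36-3y, 147 CPM). Rpl30 was at 19.7 to 56.3 CPM in females (median 27.1), 3 of them within the male range, and at 44.0 to 79.5 CPM in males (median 60.1). The form B library of male N2-2y, with 57.1 CPM of Rpl36, lay above the 9 male control libraries of form A. Sex and the form of the name were not varied together in other groups, so their parts in these wider ranges cannot be told apart.

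**Figure D4:**
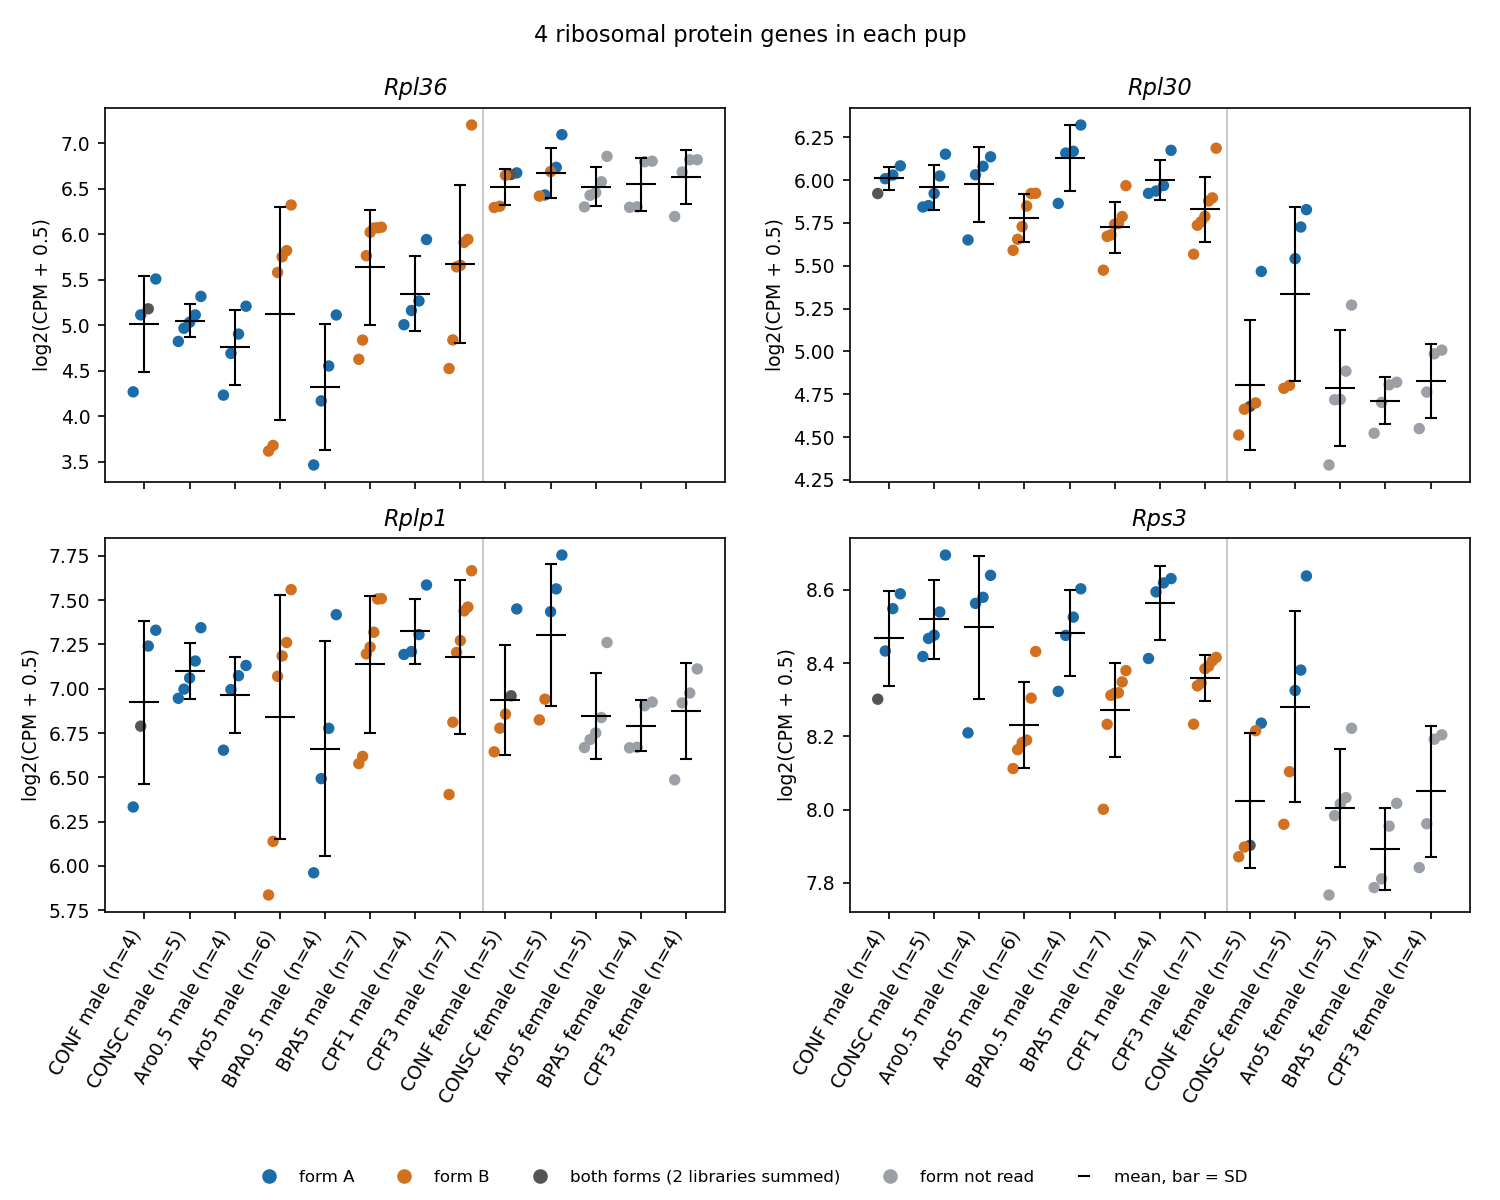
Log2(CPM + 0.5) of Rpl36, Rpl30, Rplp1 and Rps3 in every pup, by group, with points coloured by the form of the library name and bars for the group mean with its SD. Rpl36 is higher and Rpl30 lower in the female groups right of the grey line, and Aro5 males 120-1y and 120-2y have the lowest Rplp1 of their group.

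In high-dose males most members had fold changes below 0 in Aro5, but none passed the test. Against 9 male controls, edgeR called 0 of 67 members in Aro5 (background 0.195% of 16393 genes), 0 in BPA5 (0.189%) and 0 in CPF3 (0.159%). At p under 0.05 without adjustment, 23 members were lower and 0 higher in Aro5, 16 lower and 0 higher in BPA5, and 3 lower and 3 higher in CPF3. These are 34.3%, 23.9% and 8.96% of the members, against 11.8%, 9.10% and 12.6% of all genes, so the share in CPF3 lies below that of all genes. DESeq2 called 4 members in Aro5 (5.97%, against 0.366% of all genes), 1 in BPA5 (1.49%, against 0.259%) and 0 in CPF3. The median log2 fold change over the members was -0.12 in Aro5 (57 of 67 below 0), -0.058 in BPA5 and 0.0096 in CPF3, where it was -0.0016 over all genes in Aro5. These 3 comparisons share their controls.

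Rps3, a small subunit protein at the entry of the messenger RNA, had the smallest p in Aro5. It was at a lowest of 276, a median of 291 and a highest of 345 CPM in Aro5 males, against 315, 356 and 414 CPM in male controls. The groups overlapped. Its log2 fold change was -0.25 (SE 0.06, adjusted p = 0.096 by edgeR). Rpl26 was at 81.6 to 99.3 CPM in Aro5 and at 103 to 124 CPM in controls, which did not overlap, and its log2 fold change was -0.30 (SE 0.08, adjusted p = 0.10 by edgeR). Rpl26 was also lower in the form B than in the form A library of the single control N2-2y, at 95.3 against 118 CPM. Rps3 was not in that pup, at 318 CPM in form B and 312 CPM in form A. Between the forms in female controls, the log2 fold change was -0.30 for Rps3 and -0.53 for Rpl26. In female control N4-3x, Rps3 was at 233 CPM in form B and 242 CPM in form A. For both genes, treatment and form cannot be told apart in Aro5 males. Of members above the controls, Rpl36 stood at 0.41 on the log2 scale (SE 0.36, adjusted p = 0.71) and Rpl15 at 0.15 (SE 0.15, adjusted p = 0.76), both by edgeR.

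Rpl26 had the smallest p in BPA5 (log2 fold change -0.28, SE 0.07, adjusted p = 0.14 by edgeR) and in CPF3 (-0.22, SE 0.07, adjusted p = 0.26). Rpl36 was above the controls in BPA5 (0.69, SE 0.34) and in CPF3 (0.87, SE 0.34) without passing the test, with 24.2 to 67.0 CPM in BPA5 and 22.5 to 147 CPM in CPF3.

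The Aro5 values rested in part on the 2 littermates. Rpl36 was at 11.8 CPM in 120-1y and 12.3 CPM in 120-2y, and at 47.3 to 79.5 CPM in the other 4. Without both, an alternative added after the data were seen, the median log2 fold change over the members was -0.042 and 0 members were called. Restricting all groups to pups dissected from 10.30 to 13.20, the window the methods give, left 4 Aro5 males, of which 2 were these littermates, and 6 male controls. In this set 13 members were called, all lower, with 4.96% of all 16484 genes called. Leaving out Aro5 108-1y, dissected at 15.45, 6 members were called (8.96%, against 1.07% of all genes), and leaving out control N2-2y, 1 (1.49%, against 0.409%).

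Between the high-dose treatments, all of whose male libraries are of form B, no member was called (edgeR and DESeq2, 0 of 67 in each comparison, background 0% of 16393 genes in all 3). Aro5 against CPF3 had 67 of 67 fold changes below 0, with a median of -0.12, and 7 members at p under 0.05, all lower (10.4%, against 4.17% of all genes). Rpl14 was among them (-0.18 on the log2 scale, SE 0.07, adjusted p = 0.94 by edgeR). Aro5 against BPA5 had 62 fold changes below 0 (median -0.073) and 0 members at p under 0.05. BPA5 against CPF3 had 65 below 0 (median -0.054) and 1 at p under 0.05, Rpl22, with -0.18 (SE 0.08, adjusted p = 1.00 by edgeR). The mean over the members differed by -0.16 between Aro5 and CPF3 males, within a pooled SD of 0.17. The Aro5 group holds the littermates 120-1y (7.37) and 120-2y (7.42), on which these differences rest in part. Its other pups lay at 7.65, 7.73, 7.78 and 7.98, where the group means were 7.77 in BPA5 and 7.82 in CPF3.

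In low-dose males, whose libraries are of form A, no member was called by edgeR or DESeq2 against the same male controls. The background was 0.124% of 16139 genes in Aro0.5, 0.0434% in BPA0.5 and 0% in CPF1. At p under 0.05, 5 members were higher and 0 lower in Aro0.5, 2 higher and 1 lower in BPA0.5, and 0 in either direction in CPF1. These shares, 7.46%, 4.48% and 0%, lie below those of all genes (18.5%, 8.58% and 2%). The largest of these in Aro0.5 was Rpl41, the shortest ribosomal protein, at a mean of 518 ± 67.0 CPM (SD, n = 4) against 464 ± 35.4 CPM (SD, n = 9) in controls, and its log2 fold change was 0.23 (SE 0.08, adjusted p = 0.18 by edgeR). In BPA0.5, Rpl36 had -0.60 (SE 0.24, adjusted p = 0.51 by edgeR), at 10.5 to 34.1 CPM. Rpl5 had 0.17 (SE 0.07) in the same group. All 67 fold changes were above 0 in CPF1, with a median of 0.11, and Rpl37 led with 0.19 (SE 0.10, adjusted p = 1.00 by edgeR). The lower and the higher dose of an agent thus had medians of 0.062 and -0.12 (Aroclor 1254), -0.018 and -0.058 (bisphenol A) and 0.11 and 0.0096 (chlorpyrifos), in different fits whose libraries also differ in form. In Aro0.5 the mean of log2(CPM + 0.5) over the members differed from controls by -0.0094, so the sign there differs between the 2 measures.

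In high-dose females against 10 female controls no member was called by edgeR or DESeq2 in Aro5, BPA5 or CPF3, and the background was 0% of 16992 genes in each. BPA5 females had 8 members at p under 0.05, all lower (11.9%, against 4.08% of all genes), and a median log2 fold change of -0.14, with 59 of 67 below 0. Rpl37 led with -0.28 (SE 0.11, adjusted p = 0.93 by edgeR), at a mean of 128 ± 9.59 CPM (SD, n = 4) against 157 ± 28.6 CPM (SD, n = 10). Rps3 had -0.26 (SE 0.11). Aro5 females had a median of -0.070 and 0 members at p under 0.05, where Rplp1 led with -0.29 (SE 0.15, adjusted p = 1.00 by edgeR). CPF3 females had a median of 0.014 and 2 members at p under 0.05 (2.99%, against 8.79% of all genes), both higher, among them Rpl6 (0.20, SE 0.08, adjusted p = 0.48 by edgeR). Library 45-6x of this group is the deepest of the series (86206550 counts). With the female controls limited to their form A libraries, Rplp1 alone was called in Aro5 and in BPA5, lower in both. With their form B libraries alone, 0 members were called in the 3 groups. The share of all genes called in these refits is not reported here, so the counts are not read as a result about the members.

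Feeding and injection controls did not give a called member in either sex (edgeR and DESeq2). The background was 0.013% of 15387 genes in males and 0% of 16618 in females. In males 0 members had p under 0.05 and the median log2 fold change of CONF against CONSC was -0.019. In females 18 members were lower in CONF and 0 higher at p under 0.05 (26.9%, against 4.29% of all genes), with a median of -0.18 and 66 of 67 below 0. Rps25 led with -0.39 (SE 0.13, adjusted p = 0.85 by edgeR). CONF females have 2 libraries written in form A and 4 in form B, CONSC females 3 and 2.

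No member had a called difference of response between the sexes (edgeR and DESeq2, 0 of 67 for each treatment). The background among 17282 genes was 0.0984% for Aro5, 0.0405% for BPA5 and 0.0463% for CPF3. At p under 0.05 there was 1 member in Aro5, Rpl32 (female minus male response 0.28, SE 0.13, adjusted p = 0.52 by edgeR), 1 in BPA5, Rps13 (-0.31, SE 0.14, adjusted p = 1.00), and 0 in CPF3. The standard errors of these differences had a median of 0.13 to 0.14 over the members. The male response in this term cannot be told apart from the form of the library name. Treated female libraries were given no form, and the part of the form in these differences was not tested.

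**Figure D5:**
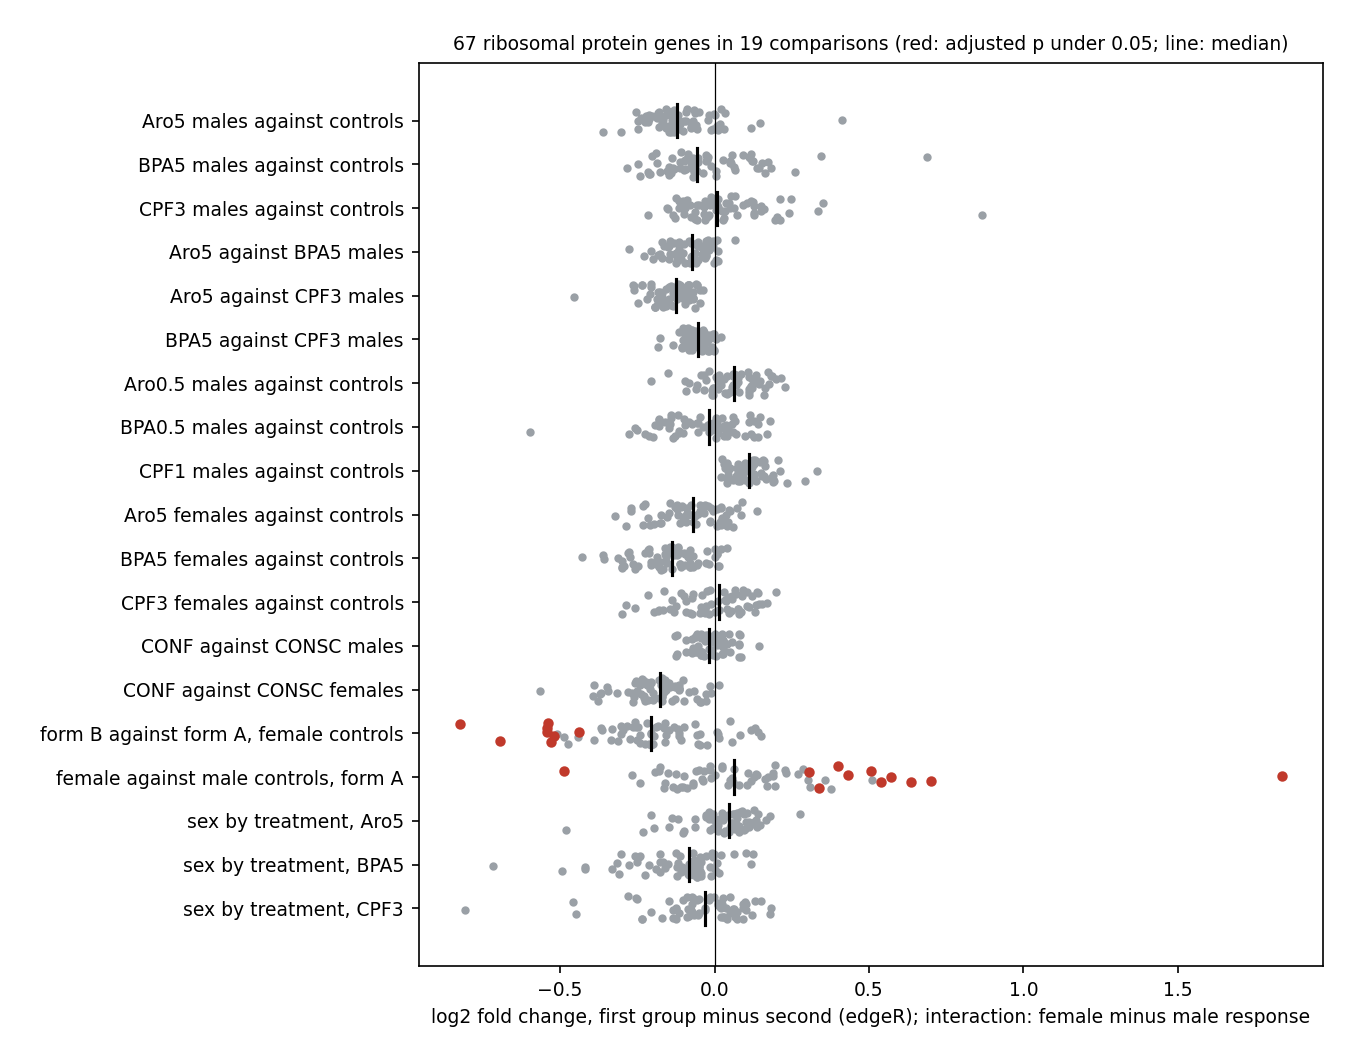
Log2 fold changes of the 67 members (points) in 19 comparisons, first group minus second, with black lines for the median of the members and red for an adjusted p under 0.05 (edgeR). Red points occur in form B against form A (8, all lower) and in female against male controls (11, Rpl36 at 1.84), and in none of the other 17 comparisons.

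Other genes of the protein synthesis machinery were read for the same 2 comparisons. Between the forms in female controls, 3 of 68 mitochondrial ribosomal protein genes tested were called, all lower in form B (Mrpl52, Mrps14, Mrpl3), with a median of -0.13. Of 66 nuclear-encoded oxidative phosphorylation genes tested 4 were called, all lower (median -0.12). Ribosome biogenesis factors (26 tested, median -0.0041) and growth regulators of ribosome genes such as Mycn (19 tested, median 0.089) had 0 called, and so did 18 other messages with a TOP motif (median -0.065), where 6 genes of each list had p under 0.05 without adjustment. Over all genes, 1.43% were called, 18.7% had p under 0.05 and the median was -0.013. The paralog Rpl22l1 was lower in form B by 1.17 (SE 0.17, adjusted p = 0.0051 by edgeR) and Rps4x, below the minimum, by 1.58 (SE 0.22). The globin gene Hbb was lower by 0.83 (SE 0.14), and the part of blood in the samples was not tested.

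Between the sexes within form A, in the fit without the litter, 13 of 68 mitochondrial ribosomal protein genes were called (10 higher and 3 lower in females), with a median of 0.019, and 15 of 66 oxidative phosphorylation genes (13 higher and 2 lower), with a median of 0.044. Over all genes, 1522 of the 1847 called were higher in females. Mrpl34 (0.84, SE 0.11) and Mrps28 (0.79, SE 0.17) rose most among the former, and Ndufs7 (1.16, SE 0.15), a subunit of complex I, among the latter. Of 26 ribosome biogenesis factors 3 were higher, Dkc1 (1.69, SE 0.19), Rrp9 and Tcof1, a share close to the 11.7% of all genes. Mycn was higher by 0.50 (SE 0.10). In the other 17 comparisons, 0 genes of these lists were called by edgeR. In Aro5 males 12 of 68 mitochondrial ribosomal protein genes and 13 of 66 oxidative phosphorylation genes had p under 0.05 without adjustment, with medians of -0.088 and -0.079. Of all genes, 11.8% had p under 0.05 in this comparison.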

How the data were processed

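Per the labels and the methods of the study, dorsal hippocampus RNA was sequenced as stranded poly-A libraries. The submitters' processing notes name STAR, featureCounts, kallisto and Rnor_6.0, without versions. The role of kallisto, the strand setting and the treatment of reads with several matches are not given in the sources used here, and labels and methods differ on the sequencer and the read length. The deposited files hold raw counts per gene for each library, which the authors did not normalise.

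From these counts, libraries of 1 pup were summed (66 libraries, 64 pups), CPM was computed per library total, and log2(CPM + 0.5) was used for levels. edgeR 4.0.16 (TMM, filterByExpr by group, quasi-likelihood F test) was fitted over all genes, with Benjamini-Hochberg adjustment over all genes tested and a threshold of 0.05. Standard errors are the log2 fold change divided by the root of F. CONF and CONSC were combined as controls. All 67 members passed the filter in each fit. DESeq2 1.42.0 and other scalings, filters, times, controls and left-out pups served as alternatives. Litters, named in the labels, paired females with males as a replicate block. The script was tested on simulated data. Intervals from counts were not used, and differences were judged against the spread between pups. Genes were named by a fixed rule (the highest, lowest, most and least variable members, the leading members of each comparison and reference genes), and Rps21, Rps13, Rpl15, Rplp1 and others shown by library were also chosen after their values were seen. Single values of some members are not reported here. The members and lists were chosen with earlier results of these data known. Pups are separate animals but dams, not pups, were exposed.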

Additional observations from a re-analysis of the deposited data

Results flagged for a closer look

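Dixon's criterion was applied to the mean over the members and to Rpl36, Rpl30, Rplp1, Rps15, Rps3 and Rpl26, on log2(CPM + 0.5), in 13 groups of 4 to 7 pups each. Of these 91 group tests, 6 singled out a pup that stands apart from its group, where chance gives about 1 in 20. The mean over the members, Rpl36 and Rps15 gave none. Rpl30 was high in CONF female N2-4x (5.47, next 4.70), the only pup of that group whose library is of form A alone. Rplp1 was high in Aro5 female 120-3x (7.26, next 6.84). Rps3 was low in BPA5 male 81-1y (8.00, next 8.23), in CPF1 male 21-1y (8.41, next 8.59) and in CPF3 male 45-1y (8.23, next 8.34). Rpl26 was low in CPF3 female 45-6x (5.93, next 6.38), the deepest library. For no member was a difference of response between the sexes called by the test of the interaction, which the form of the name also enters. Every file entered the comparisons.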

How the results depend on the processing

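Under the alternatives other than leaving out a pup, the 17 comparisons without a called member stayed at 0 in 136 of 142 refits, and the 2 with calls stayed within 1.5 times their count in 6 of 10. Of the differences of the mean over the members, 153 of 154 moved by less than the SD between pups. This limit is wide, since most of the differences were themselves smaller than that SD (in Aro5 males -0.15 against 0.17). A difference could vanish within it, so the count does not show that the differences are stable. In Aro5 males, 0 members became 4 with DESeq2, 1 with library totals and 13 in the window from 10.30 to 13.20. In BPA5 males, 0 became 1 with DESeq2. Against female controls of form A alone, 0 became 1 in Aro5 and 1 in BPA5 females. Between the forms, 8 became 18 with DESeq2, 15 with library totals and 18 without pup N4-3x. Calls over all genes can move with the setting too. A count in this paragraph whose share of all genes is not reported is not read as a result about the members. Between the sexes, a replicate block by litter left 1 of 11. In the window, the difference of the Aro5 response of the mean between the sexes was 0.26. Leaving out 1 pup or library gave 0 to 6 members in Aro5 males, 0 to 1 in BPA5 males (1 without 86-9y), 1 to 25 between the forms and 8 to 20 between the sexes. The 8 and the 11 calls of these comparisons kept their direction in each alternative, and 71 of the 242 refits of single members without a pup or library no longer passed. Replicate identifiers are pup names and were not shared between groups. The litter as a replicate block, with 18 litters holding both sexes, gave 0 members in each sex by treatment comparison, so it changed no call there. Depth was not limiting for the members, since the lowest count of a member in a pup was 112. The cause of these shifts was not tested.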
